A study of Mus musculus with 11 samples.

Results

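Of 7741 SA2 peaks called in wild-type mouse embryonic fibroblasts (MEFs), 2390 overlapped no SA1 peak of the same cells by even 1 bp, and these 2390 positions are described here. They were chosen from the SA2 and SA1 peak lists alone, so the absence of SA1 and the distance to SA1 are part of the choice and carry no test. They made up 30.9% of the wild-type SA2 list (95% Wilson interval 29.9 to 31.9%) and covered 1.04 Mb. The other 5351 SA2 peaks, which did overlap SA1 and covered 2.66 Mb, served as the comparison throughout.

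The cohesin complex encircles DNA, keeps sister chromatids paired from replication to mitosis and extrudes chromatin loops in interphase. Its ring consists of SMC1, SMC3 and a kleisin subunit, and a stromal antigen protein, either SA1 or SA2 (STAG1 or STAG2), is bound to the kleisin. The SA protein is needed for stable binding to chromatin. Chromatin-bound cohesin in mammalian cells is known to accumulate at CTCF sites and at active promoters and enhancers, and SA2 has been described at some enhancers that lack CTCF. A position with SA2 as part of cohesin would carry SMC1 and SMC3 as well.

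The cells were untreated primary MEFs from E12.5 embryos of a C57BL/6 x 129 Sv background, either wild type or SA1-null. The labels do not state the nature of the SA1-null allele, nor the sex or number of the embryos. Chromatin immunoprecipitation with sequencing (ChIP-seq) was done with antibodies to SA1, SA2, SMC1 and SMC3 in each genotype, and 2 input libraries were pools of both genotypes. Each of the 10 deposited lists holds only the chromosome, start and end of its intervals, in mm9.

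The wild-type lists held 26602 SA1, 7741 SA2, 24000 SMC1 and 15564 SMC3 peaks, and the SA1-null lists 177 SA1, 6352 SA2, 47003 SMC1 and 34802 SMC3 peaks. The input lists held 436 and 417 intervals. Every list stood for 1 library except SA1-null SMC1, for which 2 samples shared 1 list. There was thus no spread between replicates, no test between genotypes or between sets of peaks was made, and the 95% intervals below cover the counting of peaks only. Read depth is unknown, and without peak heights a missing call does not show that a protein was absent. The SA1-null SA1 list, which measures the background of the SA1 antibody, had an interval at 0 of the 2390 positions (upper limit of the 95% interval 0.160%). Over all 7741 wild-type SA2 peaks it had an interval at 9 (0.116%), all of them with SA1. Background that also entered the wild-type SA1 list was removed by the rule, so this 0 follows in part from the choice.

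Most SA2 peaks without SA1 had no other cohesin subunit called. In wild-type cells 89 of the 2390 overlapped an SMC1 peak, which is 3.72% (interval 3.04 to 4.56%), against 62.7% of all wild-type SA2 peaks and 89.1% (interval 88.2 to 89.9%) of those with SA1. An SMC3 peak was present at 51 of them, or 2.13% (interval 1.63 to 2.80%), against 54.2% of all wild-type SA2 peaks and 77.4% of those with SA1. Both ring subunits were called together at 50 positions (2.09%, against 53.4% of all wild-type SA2 peaks), and at least 1 of them at 90 (3.77%, against 63.5% of all wild-type SA2 peaks). SMC3 was called without SMC1 at 1 position (0.0418%, against 0.801% of all wild-type SA2 peaks). SMC1 was called without SMC3 at 39 (1.63%, against 9.34%), so SMC1 without SMC3 was the more frequent of these in the whole SA2 list too. Counted over peaks with SMC1 only, SMC3 was not called at 39 of 89, against 684 of 4766 SA2 peaks with SA1.

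**Figure D1:**
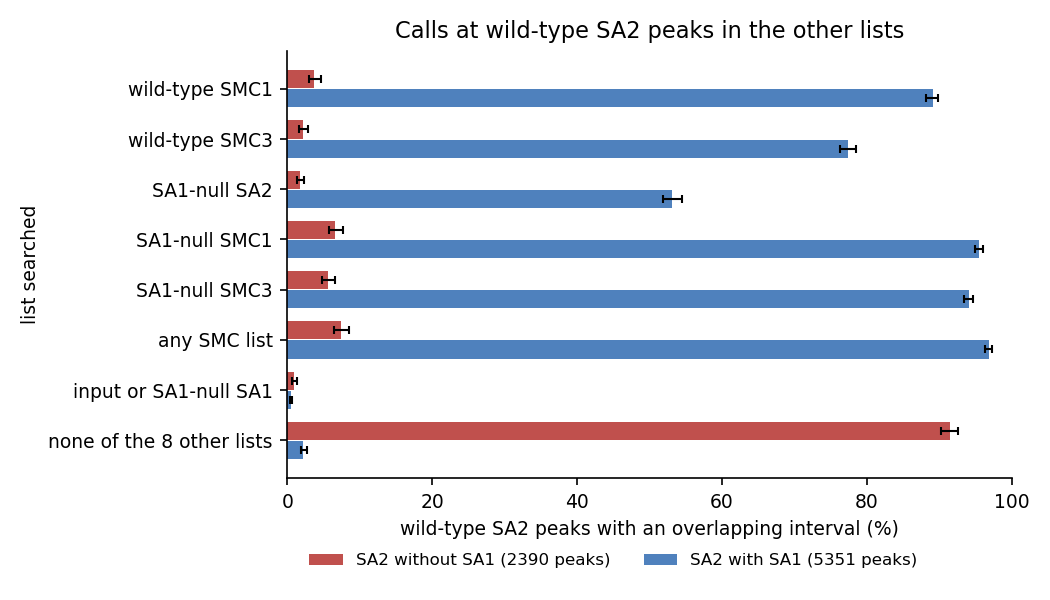
Share of wild-type SA2 peaks (x axis, %) that overlap an interval of each list named on the y axis, for SA2 peaks without SA1 (red) and with SA1 (blue); error bars are 95% Wilson intervals over peaks. None of the other 8 lists had an interval at 91.5% of the SA2 peaks without SA1, against 2.21% of those with SA1.

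The SA1-null lists gave a similar picture, although they were called in other libraries and the SMC1 and SMC3 lists were longer. SA2 itself was called again in SA1-null cells at 41 of the 2390 positions, or 1.72% (interval 1.27 to 2.32%). For all wild-type SA2 peaks this share was 37.3%, and for those with SA1 it was 53.1%. SA1-null SMC1 was present at 158 positions (6.61%, interval 5.68 to 7.68%), against 68.1% of all wild-type SA2 peaks. SA1-null SMC3 was present at 134 positions (5.61%, interval 4.75 to 6.60%), against 66.7%. At the SA2 peaks with SA1 the shares were 95.5% for SA1-null SMC1 and 94.1% for SA1-null SMC3.

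Taking all 8 lists other than wild-type SA1 and SA2, 2186 of the 2390 positions (91.5%, interval 90.3 to 92.5%) were found in none. Among all wild-type SA2 peaks this share was 29.8%, and among those with SA1 it was 118 of 5351. The deposited name of the SA2 list gives a false discovery rate of 10, which, read as percent, would correspond to 774 of its 7741 peaks. The peak caller is not named, and a rate for the whole list gives no number of false calls among the positions chosen here. Another antibody gave a peak at 192 positions (8.03%, against 70% of all wild-type SA2 peaks), and a ring subunit in either genotype at 177 (7.41%, against 69.2%). The 204 positions found in at least 1 list fell into groups that did not overlap. A ring peak was present in wild-type cells at 90. In SA1-null cells only it was present at 87 (3.64%, interval 2.96 to 4.47%). The share was 5.67% for all wild-type SA2 peaks and 6.58% for those with SA1. These shares are not on a like footing, because a wild-type ring peak keeps a position out of this class. Such a peak was present at 90.2% of the SA2 peaks with SA1 and at 3.77% of those without. At 6 positions (0.251%, against 0.654% of those with SA1) SA2 was called in both genotypes with no ring subunit and no background interval. The last 21 lay in an input list. No position had both a ring peak and a background interval.

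The positions with the fullest set of subunits numbered 25, at which SMC1, SMC3 and SA2 were called in every genotype tested (1.05%, against 31.6% of all wild-type SA2 peaks). A further 25 had all 4 SMC lists without SA1-null SA2, so that 2.09% had all 4, against 53.2% of all wild-type SA2 peaks. The 25 were spread over 13 chromosomes, none of them X, and had a median SA2 width of 512 bp (range 354 to 932 bp). Their nearest SA1 peak was between 951 and 92789 bp away, with a median of 10165 bp, and 1 of the 25 lay within 1 kb of SA1. Apart from these 25, SA2 was called in both genotypes at 16 positions, of which 9 lay in an input list, 1 had both SA1-null ring subunits, and 6 had neither. In that order they were 0.377, 0.0418 and 0.251% of the SA2 peaks without SA1. Exactly the same combinations of lists were found at 0.0934, 1.12 and 0.654% of the SA2 peaks with SA1. SA1-null SA2 also occurred there in combinations not seen among the 16, so these shares do not cover all of its calls.

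The 5 widest of these 25 illustrate cohesin positions with SA2 and no SA1 call. On chromosome 15, SA2 covered chr15:58701212-58702143 (932 bp), where the wild-type SMC1 and SMC3 peaks were 977 and 832 bp wide and the SA1-null SA2, SMC1 and SMC3 peaks 763, 714 and 873 bp. The nearest SA1 peak was 6133 bp away. A second position on the same chromosome, chr15:60988897-60989655 (759 bp), had SMC1 and SMC3 peaks of 873 and 720 bp in wild-type cells and lay 54324 bp from SA1. All 3 of its SA1-null peaks were over 800 bp wide, at 825 bp for SA2, 908 bp for SMC1 and 848 bp for SMC3. At chr12:13221511-13222256 (746 bp) the wild-type SMC3 peak was narrower, at 507 bp, than that of SMC1, at 731 bp, and SA1 was 77967 bp away. Closer to SA1 were chr2:137557989-137558675 (687 bp), at 2577 bp, and chr1:183818738-183819422 (685 bp), at 6610 bp. At these 5 positions every antibody other than SA1 gave a peak of at least 507 bp.

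The 5 widest positions without any other call had SA2 peaks of at least 826 bp. They were chr4:3151934-3152904 (971 bp), chr11:85304930-85305853 (924 bp), chr19:31839392-31840247 (856 bp), chr7:29720395-29721226 (832 bp) and chr3:105948382-105949207 (826 bp). The nearest wild-type SMC1 peak was 381480, 21395, 8195, 4216 and 153143 bp away in that order. The nearest SA1 peak was 194329, 21575, 1114, 4353 and 123160 bp away. A wide SA2 interval was thus found both with and without the other subunits.

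Where another subunit was called, most calls shared at least 50% of the shorter peak with SA2, though for the ring subunits the share was lower than at SA2 peaks with SA1. The centres of SA2 and wild-type SMC1 peaks were 63 bp apart in the median at the 89 shared positions (quartiles 33.5 and 119 bp), against 52.5 bp at the 4766 SA2 peaks with SA1 and SMC1. For SA1-null SA2 the median offset was 50.5 bp over 41 positions, and each of the 41 shared at least 50% of the shorter peak. This was so for 83 of 89 (93.3%) of the wild-type SMC1 calls, 48 of 51 (94.1%) of the wild-type SMC3 calls, 146 of 158 (92.4%) of the SA1-null SMC1 calls and 118 of 134 (88.1%) of the SA1-null SMC3 calls. At SA2 peaks with SA1 each of these shares was at least 99.9%. The offsets were wider for the SA1-null ring, with a median of 85 bp for SMC1 over 158 positions and 102 bp for SMC3 over 134, against 57.5 and 56 bp at SA2 peaks with SA1. SMC1 peaks at the 89 positions had a median width of 593 bp, and the 50 distinct SMC3 peaks at the 51 positions 681 bp. The medians were 633 and 598 bp for those at SA2 peaks with SA1, and 579 and 563 bp over the whole wild-type lists.

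The 2390 peaks were narrower than the other SA2 peaks. Their median width was 430.5 bp (quartiles 377 and 475 bp, range 227 to 971 bp), against 490 bp (quartiles 413 and 577 bp) for SA2 peaks with SA1, and the distributions overlapped widely. When all wild-type SA2 peaks were divided by width into 5 classes of equal number to within 1, those without SA1 made up 40.1% of the narrowest class, 46.8% of the second, 37.9% of the third, 20.2% of the fourth and 9.50% of the widest. Calls of SMC1 at the peaks without SA1 were between 2.22 and 2.90% in the 3 narrower classes, 5.77% in the fourth and 15.0% (interval 10.1 to 21.6%) in the widest. At SA2 peaks with SA1 they were between 85.8 and 92.8% in the same classes. Even in the widest class, 101 of the 147 peaks without SA1 were in no other list (68.7%, interval 60.8 to 75.7%). Peaks with a ring call in wild-type cells had a median SA2 width of 465 bp, those with a ring call in SA1-null cells only 452 bp, and those in no other list 429 bp.

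**Figure D2:**
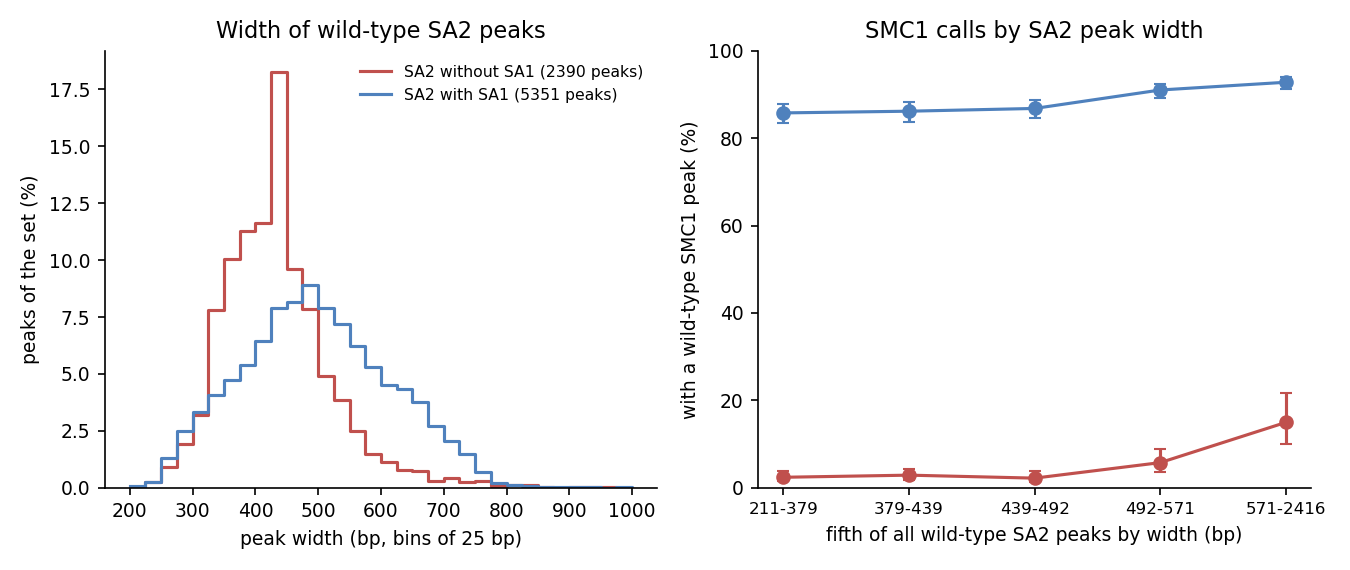
Left, width of wild-type SA2 peaks (x axis, bp, bins of 25 bp) as a share of each set (y axis, %), for peaks under 1000 bp; right, share with a wild-type SMC1 peak (y axis, %) in 5 classes of SA2 peak width (x axis, bp), with 95% Wilson intervals. Peaks without SA1 (red) are narrower, and in each width class far fewer of them have SMC1 than of the peaks with SA1 (blue).

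The edge of the rule was sharp. Among the 5351 SA2 peaks with SA1 the median overlap was 445 bp, only 3 overlapped by fewer than 100 bp, and 99.9% shared at least 50% of the shorter peak. Just outside the rule were chr2:143990186-143990622, chr17:31866297-31866685 and chr16:11035512-11036054, with overlaps of 14, 17 and 25 bp. Just inside were chr10:23276994-23277520, chr15:6336999-6337451 and chr16:5245093-5245626, at 24, 25 and 37 bp from SA1. In all, 11 of the 2390 lay within 100 bp of an SA1 peak, 33 within 500 bp and 57 within 1 kb. The other 97.6% were farther than 1 kb from SA1. The 57 were 2.39% of the positions. Of all bases between the first and the last interval of each chromosome, 2.55% lay within 1 kb of SA1. These bases include the 0.562% inside SA1 peaks, which the rule excludes for the positions.

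Edge to edge, the nearest wild-type SA1 peak was 37031.5 bp away in the median (quartiles 13201.8 and 88513.2 bp), and 20.0% of the positions lay within 10 kb of SA1. As a yardstick, every base between the first and the last interval of each chromosome was measured against the same SA1 list. The median base was 46438 bp from SA1, and 17.1% of bases lay within 10 kb. SMC1 and SMC3 gave the same order. The median position lay 39461.5 bp from an SMC1 peak, against 60351 bp for the median base, and 64254.5 bp from an SMC3 peak, against 90088 bp. The span of bases includes stretches that short reads cannot be placed on, in which no peak can be called, and the share of these was not tested.

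**Figure D3:**
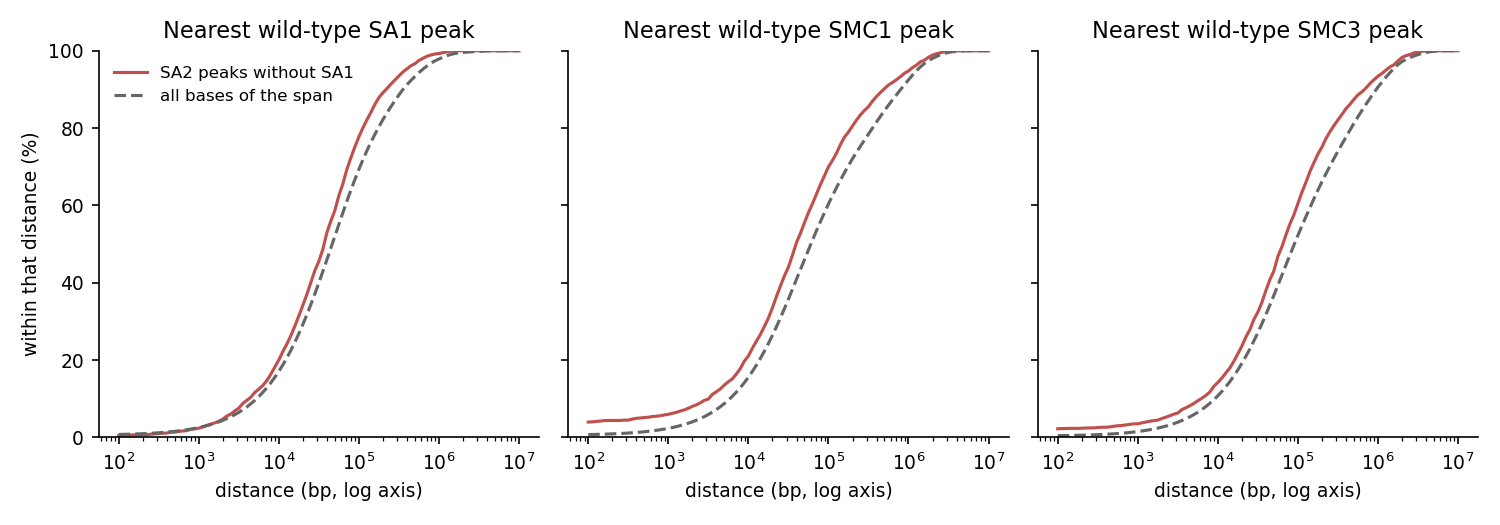
Cumulative share (y axis, %) of the 2390 SA2 peaks without SA1 (red) and of all bases between the first and last interval of each chromosome (grey, dashed) within a given distance (x axis, bp, log scale) of the nearest wild-type SA1, SMC1 or SMC3 peak. The curves run close together, with the peaks to the left of the bases at 10 kb and beyond.

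The positions with a ring call were nearer to SA1 than those in no other list. Among the rest, the 6 with SA1-null SA2 and no background interval had a median distance of 11455.5 bp, and the 21 in an input list 38871 bp. The 90 with a wild-type ring peak had a median distance of 18945.5 bp, and 37.8% (interval 28.5 to 48.1%) lay within 10 kb of SA1. For the 87 with a ring peak in SA1-null cells only, the median was 18533 bp and the share 36.8% (interval 27.4 to 47.3%). The 2186 in no other list had a median of 38386 bp, and 18.4% (interval 16.9 to 20.1%) lay within 10 kb. The greatest distances were found in this last class, at chrX:113289068-113289451 (1592826 bp), chr5:127726643-127727080 (1512710 bp) and chr1:104294205-104294629 (1386344 bp). Among SA2 peaks without an SMC1 peak, the median distance to SMC1 was 43351 bp for the 2301 without SA1 and 34424 bp for the 585 SA2 peaks with SA1 that had no SMC1.

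Within the gaps between neighbouring SA1 peaks, the SA2 peaks without SA1 were spread evenly from the edge to the middle. An SA1 peak flanked 2386 of them on both sides, and each gap was folded at its midpoint and divided into 5 zones of equal length. From the edge inwards the zones held 500, 500, 448, 464 and 474 positions, or between 18.8 and 21.0%, where an even spread gives 20%. The gaps that held them had a median length of 176027.5 bp, whereas the gap around the median base of all gaps was 220149 bp long. In all, 2063 of the 26582 gaps held a position, 256 held at least 2, and the most in a gap was 5.

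Neighbouring positions were far apart. The median gap between an SA2 peak without SA1 and the next was 704781 bp (quartiles 265179.8 and 1471340.8 bp), against 203748 bp for the more numerous SA2 peaks with SA1. Of 2370 neighbouring pairs, 23 were closer than 10 kb (0.970%) and 266 closer than 100 kb (11.2%). Pairs numbered 224 (4.20%) and 1583 (29.7%) for SA2 peaks with SA1. Following the SA2 list along the chromosomes, the next SA2 peak also lacked SA1 in 39.4% of cases (interval 37.5 to 41.4%) after a peak without SA1 and in 27.0% (interval 25.8 to 28.2%) after a peak with SA1.

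The number of SA2 peaks without SA1 was compared with that of SA1 in fixed windows of 1 Mb, as a description, since the rule used SA1. Of 2515 windows with an interval of any list, 1507 held at least 1 such peak and 204 held 3 or more. In the 503 windows poorest in SA1 (0 to 4 SA1 peaks) there were 0.708 SA2 peaks without SA1 per window, and in the 503 richest (17 to 43) there were 1.10, a ratio of 1.56. SA2 peaks with SA1 went from 0.209 to 4.77 per window, a ratio of 22.8. The rule requires an SA1 peak for the one set and removes every SA2 peak at SA1 from the other, so part of both gradients follows from it. The share of SA2 peaks that lacked SA1 was 77.2% (interval 73.2 to 80.8%) in the poorest windows and 18.8% (interval 17.4 to 20.2%) in the richest. Spearman's rho with the number of wild-type SMC1 peaks was 0.12 for SA2 peaks without SA1 and 0.78 for those with SA1 (2515 windows). The rule did not use SMC1, but 89.1% of the SA2 peaks with SA1 overlapped an SMC1 peak, against 3.72% of those without. The difference in rho thus also follows in part from the choice of positions. The sets also differed in number, with 2390 and 5351 peaks, and 905 of the windows held exactly 1 SA2 peak without SA1. The effect of such low counts on rho was not tested. Windows of a chromosome share their libraries and are not replicates.

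**Figure D4:**
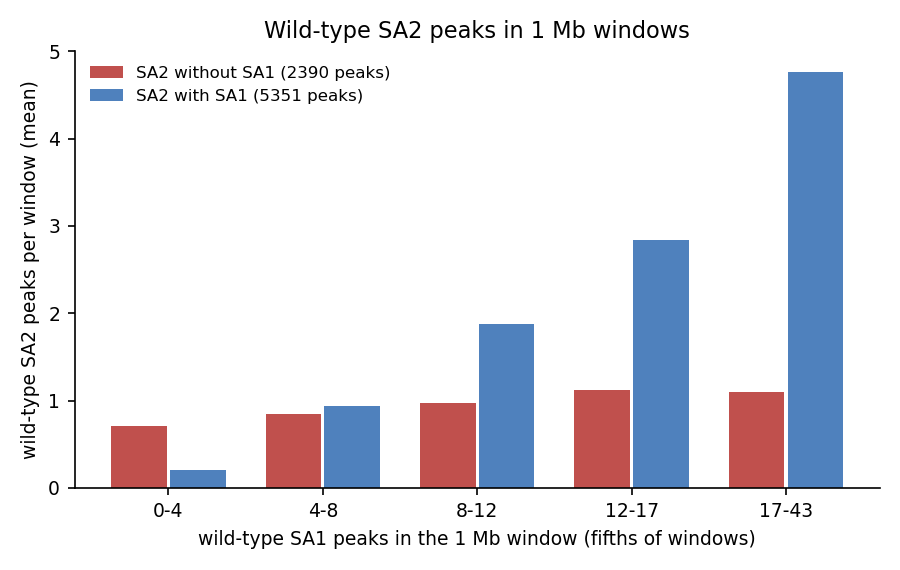
Mean number of wild-type SA2 peaks per 1 Mb window (y axis) in 5 classes of 503 windows by their number of wild-type SA1 peaks (x axis; windows with equal numbers at a class limit were split by position), for SA2 peaks without SA1 (red) and with SA1 (blue). From the poorest to the richest class the red bars go from 0.708 to 1.10 and the blue bars from 0.209 to 4.77.

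The fullest windows were on chromosomes 2 and 1. The window from 32 to 33 Mb of chromosome 2 (chr2:32000001-33000000) held 7 SA2 peaks without SA1 beside 12 with SA1 and 31 SA1 peaks, and 4 of the 7 lay within chr2:32116100-32157208. On chromosome 1, chr1:72000001-73000000 held 6, with 14 SA1 peaks. The window chr1:102000001-103000000 also held 6, with 1 SA1 peak and 0 SMC1 peaks. In both of these chromosome 1 windows all 6 were in no other list, as were 5 of the 7 on chromosome 2. The share over all 2390 positions was 91.5%. A stretch of 4 in a row at chr2:91674737-91752574 contained no SA1 peak and 1 SMC1 peak. The other of the 3 shortest stretches of 4, chr1:72075365-72182457, contained 3 SA1 peaks and 1 SMC1 peak.

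All 20 chromosomes carried SA2 peaks without SA1, at densities that varied less than those of the other SA2 peaks. The autosomes held 0.961 ± 0.118 per Mb (mean ± SD over 19 autosomes, range 0.766 to 1.15), with the highest value on chromosome 8 and the lowest on chromosome 3. SA2 peaks with SA1 ranged from 1.66 (chromosome 12) to 3.40 (chromosome 11) per Mb, a ratio of 2.05 against 1.504 for those without SA1, and SA1 peaks from 8.86 to 14.4 per Mb. The share of SA2 peaks that lacked SA1 was accordingly lowest on chromosome 11, at 22.0%, and highest among autosomes on chromosome 12, at 35.3%.

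Chromosome X had few SA2 peaks, and nearly as many of these lacked SA1 as had it. Of 201 wild-type SA2 peaks on X, 97 had no SA1 (48.3%, interval 41.4 to 55.1%), against 30.4% (interval 29.4 to 31.5%) of those on autosomes. Their density on X was 0.598 per Mb, which is 0.623 of the autosome mean. For SA2 peaks with SA1 this ratio was 0.289 and for SA1 peaks 0.435. Of the 97 on X, 94 were in no other list, where the share over all 2390 positions was 91.5%. A ring peak was present in SA1-null cells only at 3 of the 97 (3.64% over all 2390) and in wild-type cells at none (3.77% over all 2390). These counts on X are small and no test was made.

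**Figure D5:**
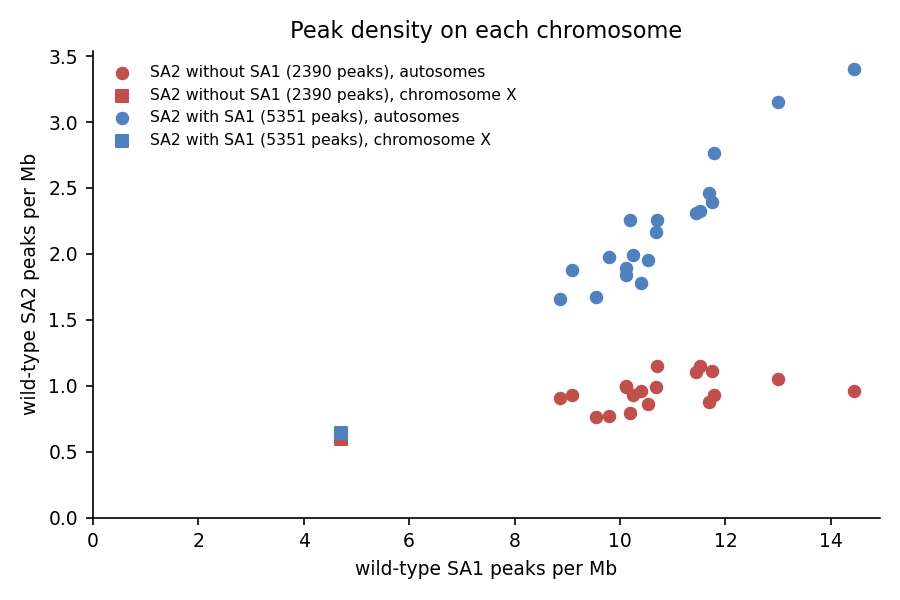
Wild-type SA2 peaks per Mb (y axis) against wild-type SA1 peaks per Mb (x axis) for the 19 autosomes (circles) and chromosome X (squares), for SA2 peaks without SA1 (red) and with SA1 (blue). On the autosomes the red points stay between 0.766 and 1.15 per Mb while the blue points reach 3.40.

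Few positions lay in intervals enriched without a specific antibody. An input interval was present at 21 of the 2390 (0.879%, interval 0.575 to 1.34%), against 0.452% of all wild-type SA2 peaks (0.568% with the SA1-null SA1 list included) and 14 of the 5351 with SA1. All 21 were in the list of the input used to call the SMC peaks, and 3 of them were also in the list of the input against which SA2 had been called (0.126%, against 0.0517% of all wild-type SA2 peaks). These 21 were wide, with a median of 584 bp, and 9 of them had an SA1-null SA2 peak and no ring peak. The 14 with SA1 included such peaks too. An SA1-null SA2 peak without a ring peak was present at 5 in the first of these input lists only and at 1 in both. Without the 21, SA2 was called again in SA1-null cells at 32 of 2369 positions (1.35%).

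Related sets of peaks with 1 SA protein differed in how often the ring was called. Of 21249 wild-type SA1 peaks without SA2, 59.7% (interval 59.0 to 60.4%) had a wild-type SMC1 peak and 43.2% an SMC3 peak, against 3.72 and 2.13% of the SA2 peaks without SA1. The 21249 came from 26602 SA1 peaks and the 2390 from 7741 SA2 peaks, so the sets are unlike parts of their lists. The shares over all wild-type SA1 peaks are not given here. The SA2 list of SA1-null cells held 599 peaks at which wild-type cells had no SA1. SMC1 of the same genotype was present at 12.0% (interval 9.66 to 14.9%) of these and SMC3 at 10.9%, and 74.96% (interval 71.3 to 78.3%) were in no other list. More of the 599 lay in a background list, with 8.18% in that of SA1-null SA1, against 0% of the 2390. In the list of the input against which SA2 had been called lay 5.51%, against 0.126%. In that of the other input lay 3.17%, against 0.879%. The shares over all SA1-null SA2 peaks are not given here. The 41 positions shared by the 2390 and the 599 were 1.72% of the first set and 6.84% of the second. These 599 had a median distance of 50301 bp to SA1 and a median width of 452 bp.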

How the data were processed

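The authors deposited 10 interval lists for 11 ChIP-seq samples; the values used are interval starts and ends in bp, with no height, score or p-value, so depth is unknown. The submitters' processing notes name CASAVA 1.7 and the build mm9; no source used here names the aligner or the peak caller. Per the deposited names, lists were called at a false discovery rate of 10, wild-type and SA1-null SA2 and wild-type SA1 against the first input and the other lists against the second. Libraries held fragments of 100 to 200 bp amplified with 14 PCR cycles, per the labels' protocols.

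The starts, taken as 0-based, appear in the text as 1-based. Overlap required 1 bp. Distances run from edge to edge, with touching peaks at 1 bp; all 7741 SA2 distances to each list equalled those of bedtools 2.31.1, and the functions were tested on simulated data. The tools were pandas 2.3.3, numpy 2.4.6 and scipy 1.17.1 under Python 3.11.15. The members and lists were chosen with earlier results of these data known.

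Named positions were, outside chromosome 18, the 5 widest with SMC1, SMC3 and SA1-null SA2, the 5 widest in no other list, 3 on each side of the rule's edge, the 3 farthest from SA1, and the 3 fullest windows and the 3 shortest stretches of 4. An mm9 genome was not used here, so genes and sequences at the peaks were not analysed. Alternatives are given in the closing section.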

Additional observations from a re-analysis of the deposited data

How the results depend on the processing

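Of 97 values recomputed under the alternatives, 73 stayed within the 95% interval of the reported value or, for the number of positions, within 1.5 times of it. Restriction to SA2 peaks at least as wide as the median moved all 14 values: 701 positions, of which 6.42% had wild-type SMC1, 4.14% wild-type SMC3, 3.14% SA1-null SA2, 10.98% SA1-null SMC1, 9.56% SA1-null SMC3, 13.6% any other antibody, 1.71% a background interval and 2.996% lay on X, with a median width of 511 bp, median distances of 32022 bp to SA1, 32232 bp to SMC1 and 54633 bp to SMC3, and a median spacing of 2432828 bp, which fewer positions lengthen. Counting peaks within 500 bp as shared gave 8.19% for SA1-null SMC1 and 9.59% for any other antibody. Removing background intervals gave 0% in a background list by construction. Keeping only positions more than 5000 bp from SA1, an alternative added after the data were seen, gave 5.68% for SA1-null SMC1, 4.69% for SA1-null SMC3 and 6.96% for any other antibody, and medians of 44518 bp to SA1, which the filter itself lengthens, 47943.5 bp to SMC1, 73997.5 bp to SMC3 and 792448.5 bp between positions. The cause of the moves in the shares and in the SMC1 and SMC3 distances was not tested. A minimum overlap of 50%, joining of peaks less than 1000 bp apart and removal of chromosome X moved none of the values they were run for. A ranking by score was not run, because the lists hold none. No paired analysis was possible because each group has 1 list and no result comes from a test. Unknown depth limits every absent call.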

Other observations

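The fullest 25 bp bin of SA2 width differed in its share between the sets of peaks. Between 425 and 449 bp lay 437 of the 2390 (18.3%, 95% Wilson interval 16.8 to 19.9%), against 423 of the 5351 SA2 peaks with SA1 (7.91%, interval 7.21 to 8.66%). This bin held 14 of 118 SA2 peaks that had SA1 and were in no further list (11.9%, interval 7.20 to 18.9%), and this interval overlaps that of the peaks without SA1. The bins below and above this range held 11.6 and 9.62% of the peaks without SA1. Of the 2186 in no other list 18.8% fell in the range, and of the 177 with a ring peak 14.7% (interval 10.2 to 20.6%). The same range held 86 of the 449 SA1-null SA2 peaks that had neither wild-type SA1 nor any other list (19.2%, interval 15.8 to 23.0%), against 7.56% of all SA1-null SA2 peaks. The range was chosen after the widths had been seen, and no test was made.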
